A study of Homo sapiens with 17 samples.

Results

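The genes described are those of the human proteasome: 48 protein-coding genes whose symbols begin with PSMA, PSMB, PSMC, PSMD, PSME, PSMF or PSMG followed by digits alone, out of 57638 annotated genes with a transcript in the files. They were measured in 17 RNA libraries made from K562, an established line of human chronic myeloid leukaemia cells. All cells, controls included, were electroporated with CRISPR plasmids and then treated with an antisense oligonucleotide, and all were processed on day 6. The series design says that the plasmids were meant to activate the gene named in each label, and the series title links GOLGA8 to oligonucleotide uptake and activity.

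The GOLGA8N group comprised libraries GOLGA8N 1, GOLGA8N 2 and 23-GOLGA8N, and the LAPTM4B group comprised LAPTM4B 1, LAPTM4B 2 and 22-LAPTM4B. The control group comprised Neg, RFP and GFP, whose labels name no human gene. The other 8 labels, CTPS2 (as 21-CTPS2), ARSF (as 20-ARSF), TTR, TRPC5OS, E7, ADORA2A, UBE2V1 and COL6A6, had 1 library each. The 4 labels with a number before the gene are called prefixed here, and the other 13 unprefixed. The meaning of the prefixes, of Neg and of E7 is not stated in the labels. Separate cultures are not stated either, so each p-value reflects library-to-library spread that could be technical.

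The 26S proteasome degrades proteins tagged with ubiquitin. Its 20S core is a barrel in which alpha rings, which gate the entrances, flank beta rings, which hold the proteolytic sites. A 19S cap binds ubiquitinated proteins, removes the ubiquitin and unfolds the substrate with a ring of ATPases. In cells exposed to interferon, the catalytic subunits PSMB5, PSMB6 and PSMB7 can be replaced by PSMB8, PSMB9 and PSMB10, giving the immunoproteasome. PSMB11 is the corresponding subunit of the thymus, and PSMA8 is an alpha subunit of the testis. Other caps, the PSME activators, can take the place of the 19S cap.

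The promoters below are shown because their genes carry the main contrasts in the data: the catalytic subunit PSMB5 was abundant, its immunoproteasome counterpart PSMB8 and the neighbouring PSMB9 were near 0, and the activator genes PSME1 and PSME3 had the lowest p-values between prefixed and unprefixed labels. They are RefSeq sequences (GRCh38.p14), each from 250 bases before to 50 bases after a transcription start, 5′ to 3′ on the gene's strand, and PSMB5 and PSMB8 have 2 starts each. Capitals mark matches, on either strand, to any of the 6 motifs named after the sequences, and overlapping matches are joined.
PSMB5, chr14:23034851-23035150, minus strand: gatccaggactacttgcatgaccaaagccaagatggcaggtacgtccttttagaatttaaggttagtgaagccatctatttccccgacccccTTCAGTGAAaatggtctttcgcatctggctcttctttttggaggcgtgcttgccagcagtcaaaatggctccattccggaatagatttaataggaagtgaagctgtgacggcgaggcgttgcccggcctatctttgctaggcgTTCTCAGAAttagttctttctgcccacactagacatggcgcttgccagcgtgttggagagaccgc
PSMB5, chr14:23035171-23035470, minus strand: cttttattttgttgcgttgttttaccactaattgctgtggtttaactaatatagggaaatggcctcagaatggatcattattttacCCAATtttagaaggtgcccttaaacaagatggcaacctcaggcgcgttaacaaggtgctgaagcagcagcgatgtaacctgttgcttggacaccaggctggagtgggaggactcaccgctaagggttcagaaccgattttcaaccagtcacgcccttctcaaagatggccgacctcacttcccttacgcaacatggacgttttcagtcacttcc
PSMB8, chr6:32843998-32844297, minus strand: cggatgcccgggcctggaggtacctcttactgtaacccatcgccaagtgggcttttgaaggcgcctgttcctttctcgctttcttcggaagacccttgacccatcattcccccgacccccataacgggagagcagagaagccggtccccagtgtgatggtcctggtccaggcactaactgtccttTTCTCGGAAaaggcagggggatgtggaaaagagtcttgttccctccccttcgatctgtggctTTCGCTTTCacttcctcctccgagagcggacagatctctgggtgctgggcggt
PSMB8, chr6:32844630-32844929, minus strand: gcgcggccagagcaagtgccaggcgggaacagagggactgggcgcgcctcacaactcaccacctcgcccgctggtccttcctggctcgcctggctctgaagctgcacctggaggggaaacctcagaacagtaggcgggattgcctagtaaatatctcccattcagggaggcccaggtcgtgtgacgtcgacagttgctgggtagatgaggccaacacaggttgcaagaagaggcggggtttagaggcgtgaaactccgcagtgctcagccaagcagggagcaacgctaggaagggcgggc
PSMB9, chr6:32853942-32854241, plus strand: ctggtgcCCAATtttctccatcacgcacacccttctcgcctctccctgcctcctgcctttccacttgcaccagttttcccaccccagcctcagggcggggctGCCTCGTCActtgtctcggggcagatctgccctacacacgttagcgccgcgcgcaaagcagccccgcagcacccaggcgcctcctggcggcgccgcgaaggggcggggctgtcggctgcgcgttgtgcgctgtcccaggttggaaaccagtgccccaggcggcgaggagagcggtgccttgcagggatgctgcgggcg
PSME1, chr14:24135944-24136243, plus strand: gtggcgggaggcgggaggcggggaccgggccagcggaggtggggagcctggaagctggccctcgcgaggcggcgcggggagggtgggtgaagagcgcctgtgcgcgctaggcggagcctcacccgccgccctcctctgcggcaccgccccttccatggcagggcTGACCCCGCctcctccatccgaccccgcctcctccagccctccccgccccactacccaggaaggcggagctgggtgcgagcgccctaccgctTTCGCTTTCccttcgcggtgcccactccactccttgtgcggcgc
PSME3, chr17:42833147-42833446, plus strand: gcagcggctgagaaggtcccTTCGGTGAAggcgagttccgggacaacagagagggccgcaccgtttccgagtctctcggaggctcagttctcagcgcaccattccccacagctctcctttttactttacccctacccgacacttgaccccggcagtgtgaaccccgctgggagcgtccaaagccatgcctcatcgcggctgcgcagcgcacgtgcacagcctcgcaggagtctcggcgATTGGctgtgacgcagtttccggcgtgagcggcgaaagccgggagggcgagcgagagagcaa

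Of the 48 members, 42 had a promoter entry, and PSMA7, PSMB1, PSMB6, PSMB7, PSMD4 and PSMG3 had none. The antioxidant response element core TGACNNNGC, which the proteasome regulator NFE2L1 is known to bind in such elements, was found in 15 members (35.7%), against 16.1% of 27305 genes. The ETS core CCGGAAG was found in 15 members as well, against 12.2% of genes. The CCAAT box stood in 47.6% of members and 39.7% of genes, and the YY1-type letters AAGATGGCG in 7.14% of members and 2.14% of genes. The interferon-gamma activated site TTCNNNGAA occurred in 19.05% of members and 9.38% of genes, and the interferon-stimulated element core GAAANNGAA in 19.05% of members and 9.86% of genes. One PSMB8 promoter held both interferon-type motifs and the other held none of the 6. A match is a description of the letters, not a binding site.

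Depth lay between 569057 estimated reads (GFP) and 4236396 (20-ARSF), so that a floor of 3 reads corresponded to 5.45 CPM in GFP and 0.733 CPM in 20-ARSF, where CPM are counts scaled to the reads assigned to genes. Ribosomal protein genes took 21.7% to 25.3% of those reads. The erythroid genes that K562 is known to express were present, with HBG2 at a median of 3638 CPM and GATA1 at 142 CPM. The labels call the cells lymphoblasts, yet the lymphoid genes MS4A1, CD3E and CD2 had no reads in any library. These are bulk libraries, in which fewer cells of a type and less RNA per cell cannot be told apart.

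The proteasome was broadly transcribed: 44 of 48 members had reads in every library and a median of at least 10 CPM, and 20 had a median of at least 100 CPM. All members together took 5239 CPM in 22-LAPTM4B, the lowest library, and 6986 CPM in LAPTM4B 2, the highest, with a median of 5919 CPM. The 4 remaining members were PSMA8, PSMB8, PSMB9 and PSMB11. Levels of different genes are compared below mainly as the deposited TPM, which are scaled by transcript length. CPM mainly compare 1 gene across libraries. Because the tags come from transcript ends, their number need not grow with length, and scaling by length can distort the order of genes. The order in TPM is therefore descriptive, and it differed from that in CPM in places.

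**Figure D1:**
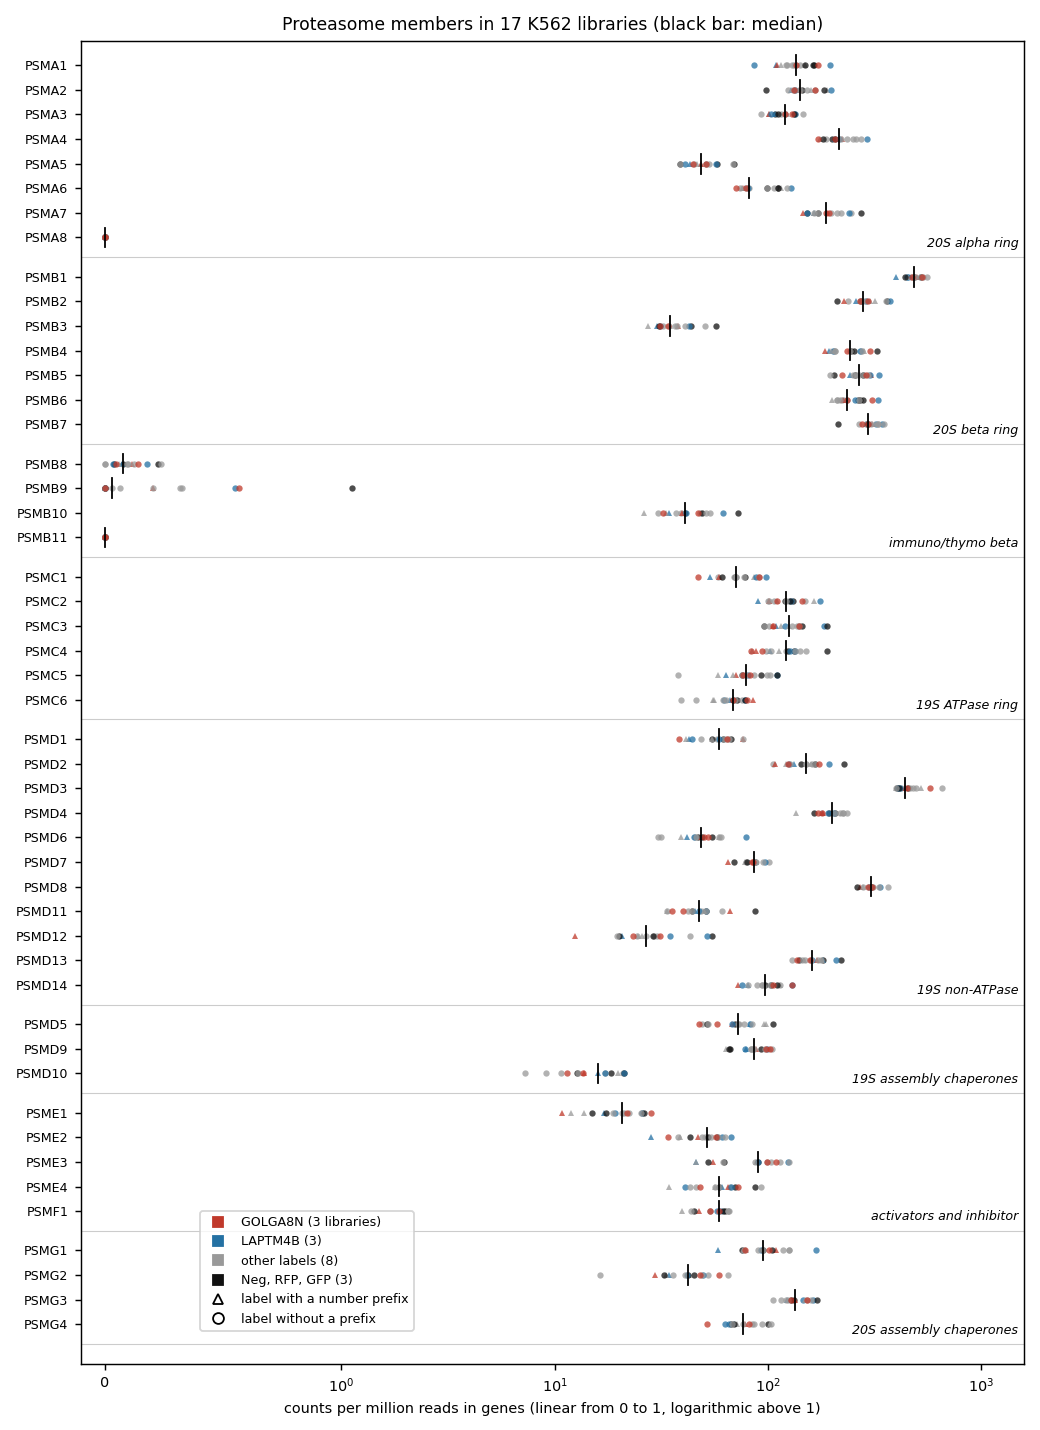
Levels of the 48 members in 17 libraries, in CPM on an axis that is linear from 0 to 1 and logarithmic above 1, grouped by subcomplex. Each point is a library, coloured by group, triangles are prefixed labels and black bars are medians; 44 members lie at 7.23 CPM or more in each library, while PSMA8, PSMB8, PSMB9 and PSMB11 lie near or at 0.

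The alpha ring genes, whose products form the gated outer rings, summed to a median of 951 CPM. On the length-scaled TPM level, PSMA3 was highest with a median of 201 TPM, followed by PSMA7 at 118 TPM, PSMA6 at 116 TPM and PSMA1 at 101 TPM. In CPM the order differed: PSMA4 was highest at a median of 216 CPM, with PSMA7 at 189 CPM and PSMA3 at 120 CPM. PSMA5 was lowest of the expressed alpha genes at 10.4 TPM. Across libraries, PSMA3 was the steadiest, with 92.9 to 146 CPM, whereas PSMA1 ran from 86.3 CPM in LAPTM4B 1 to 196 CPM in LAPTM4B 2, which carry the same gene label. The testis subunit PSMA8 had 0 reads in all 17 libraries. PSMA3 overlaps the antisense gene PSMA3-AS1, which had 1487 reads against 5916 for PSMA3, and no source used here states how strand was handled in counting.

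The beta ring genes, which include the proteolytic subunits, summed to a median of 1849 CPM. On the TPM level, PSMB1 had a median of 231 TPM, and the catalytic PSMB5, PSMB6 and PSMB7, which provide the chymotrypsin-like, caspase-like and trypsin-like activities, had 170, 132 and 126 TPM. PSMB1 varied little, with 401 CPM in 22-LAPTM4B as the lowest library and 561.7 CPM in COL6A6 as the highest, a coefficient of variation (CV, the SD divided by the mean) of 8.32%. PSMB7 had a CV of 10.7% over all libraries and 7.67% without GFP, where it was lowest at 213 CPM. PSMB3 was listed at a median of 34.7 CPM, but transcripts without a gene, of equal length and reads, carried nearly as many reads again.

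Of the immunoproteasome genes, PSMB10 was expressed while PSMB8 and PSMB9 were barely detected. PSMB8 had 4.38 estimated reads summed over all libraries, and its highest library, UBE2V1, had 0.237 CPM. PSMB9 had 10.4 reads in all, at most 1.12 CPM in RFP, and no reads in 7 libraries. Except for PSMB9 in RFP, where the 3-read floor was 0.965 CPM, these values lay below the floor of their library. They count annotated transcripts only. Matching transcripts without a gene held 30.6 further reads beside PSMB8 and 27.6 beside PSMB9. With those added, the highest libraries had 1.90 CPM of PSMB8 and 2.85 CPM of PSMB9. PSMB10, the counterpart of PSMB7, had reads in every library, at 26.4 CPM in 21-CTPS2 as the lowest, a median of 40.8 CPM and 72.7 CPM in GFP as the highest. In TPM of annotated transcripts, the PSMB10 median was 37.2, against 126 for PSMB7, and the PSMB8 median was 0.0422, against 170 for PSMB5. PSMB11, the thymus subunit, had 0 reads in all 17 libraries. Absence of reads limits these genes only to the floors given above, and only for annotated transcripts.

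In the 19S cap, the ATPase genes PSMC1 to PSMC6 had medians between 14.1 TPM for PSMC1 and 44.5 TPM for PSMC5 and a summed median of 589 CPM. In CPM the highest median was that of PSMC3 at 125 CPM, and PSMC5 had 79.0 CPM. The ATPases differed in how far single libraries departed from the rest. PSMC5 had 38.1 CPM in E7, against 58.5 to 111 CPM in the other 16 libraries. PSMC6 had 39.1 CPM in TRPC5OS, against 46.2 to 85.6 CPM in the others. PSMC4 was highest in GFP, the shallowest library, at 189 CPM.

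The non-ATPase subunits spanned the widest range of TPM of the subcomplexes with every member expressed. PSMD3 had a median of 487 TPM and the ubiquitin receptor PSMD4 323 TPM, whereas PSMD12 had 3.83 TPM. PSMD8 was the steadiest member of the whole set, with 264 CPM in GFP as the lowest library, 366 CPM in COL6A6 as the highest and a CV of 8.07%. PSMD12 was the most variable of the 44, at a CV of 38.0%, with 12.5 CPM in 23-GOLGA8N, 54.7 CPM in Neg and 51.9 CPM in LAPTM4B 2. The deubiquitinase PSMD14 had 72.2 to 130 CPM, and the scaffold subunits PSMD1 and PSMD2 had 38.5 to 76.8 CPM and 105 to 229 CPM.

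The assembly genes were expressed throughout. Of the 19S chaperones, PSMD9 had a median of 86.1 CPM and PSMD5 72.4 CPM, and PSMD10, also called gankyrin, had 15.9 CPM, with 7.23 CPM in COL6A6 as its lowest library. Of the 20S chaperones PSMG1 to PSMG4, PSMG1 had 58.7 CPM in 22-LAPTM4B and 168 CPM in LAPTM4B 2 as its extremes. PSMG2 had 16.3 CPM in UBE2V1, against 29.4 to 64.8 CPM in the other libraries. PSMG4 was the lowest in GOLGA8N 2 at 51.8 CPM and highest in E7 at 103 CPM.

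Among the activators, PSME2 had the highest median TPM, followed by PSME4 at 14.7 TPM, PSME1 at 10.5 TPM, PSME3 at 10.0 TPM and the inhibitor PSMF1 at 5.32 TPM. The place of PSME1 in this order depends on read assignment, since transcripts of the same length and reads but no annotated gene held 997 reads beside its own 1005. In CPM as annotated the order differed, with PSME3 highest at a median of 89.7 CPM. PSME1 and PSME2 form the interferon-inducible PA28 alpha-beta cap, PSME3 is the nuclear PA28 gamma, and PSME4 is PA200. The sum of this subcomplex was lowest in 21-CTPS2 at 170 CPM and highest in COL6A6 at 358 CPM, with a median of 273 CPM. PSME3 had a CV of 31.4%, the largest of the 44 after PSMD12.

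The median CV of 44 members was 19.1%, against 30.3% over 7065 genes with a median of at least 10 CPM. At matched levels the gap was smaller: 25 members of intermediate level had a median CV of 19.8%, against 21.5% for 1650 genes at those levels. LAPTM4B 2 was the highest library for 13 of the 44 members and the lowest for none. GFP was the highest for 10 and the lowest for 4, and RFP and ADORA2A were also the lowest for none. Against LAPTM4B 1, a library of the same label, LAPTM4B 2 was higher in 39 of 44 members with a median log2 ratio of CPM of 0.38, against 0.08 over 7065 genes. The ratio over all genes used a pseudocount of 1 CPM and that of members none. The share of all genes higher in LAPTM4B 2 was not computed.

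**Figure D2:**
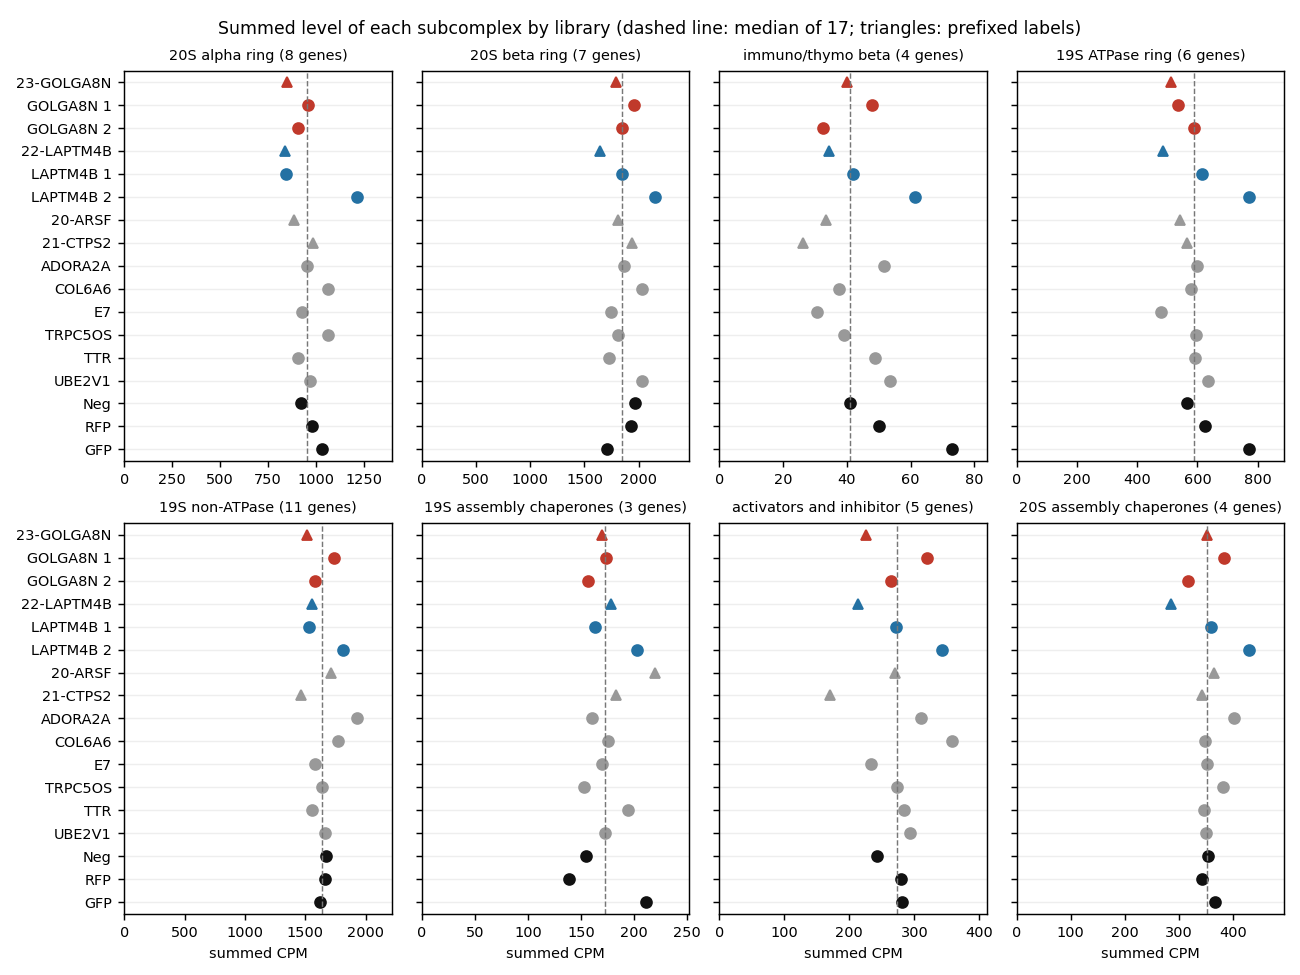
Summed CPM of the genes in each of 8 subcomplexes (x axes, starting at 0) for each library (y axis), with GOLGA8N libraries at the top and controls at the bottom. Triangles are prefixed labels and dashed lines are medians of 17; LAPTM4B 2 is high in several panels, and the activator and inhibitor sum is lowest in 21-CTPS2 at 170 CPM.

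GOLGA8N against control asks whether proteasome transcripts differed in cells carrying a plasmid for GOLGA8N. In total, 44 of 48 members entered the edgeR quasi-likelihood fit over the 9 libraries of the 3 groups, PSMA8, PSMB8, PSMB9 and PSMB11 being too low. None passed an adjusted p of 0.05, against 0.0168% of all 11916 genes tested, and DESeq2 and limma-voom also called 0 members. At an unadjusted p under 0.05, 2 members were higher and 1 lower (5.68% of all genes). Higher fold changes were seen for 25 members and lower ones for 19 (50.7% of all genes were higher), with a median log2 fold change of 0.07, against 0.01 over all genes. This direction depended on scaling: with library totals alone, 13 members were higher, the median was -0.09 and that of all genes -0.14. It also rested on GOLGA8N 1, without which 21 members were higher and the median was -0.0036. Against the 14 other libraries, 17 members were higher and the median was -0.04.

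PSMC4, an ATPase, had the lowest p of the members. It had 83.8 CPM in GOLGA8N 1, 94.1 CPM in GOLGA8N 2 and 87.7 CPM in 23-GOLGA8N, against 133 CPM in Neg, 124 CPM in RFP and 189 CPM in GFP. All 3 GOLGA8N libraries lay below all 3 controls. The log2 fold change was -0.57 ± 0.22 (SE), with an adjusted p of 0.772. It was -0.41 without GFP, and -0.73 when reads of matching transcripts without a gene were added. PSMA6 was the other of 2 members whose groups did not overlap (11.8% of all genes), with 79.4 CPM in GOLGA8N 1, 71.1 CPM in GOLGA8N 2 and 76.5 CPM in 23-GOLGA8N, against 111 CPM in Neg, 99.4 CPM in RFP and 111 CPM in GFP. It was named for its values, and its log2 fold change was -0.35 ± 0.23 (SE), adjusted p = 0.944. PSMD9, a 19S chaperone, had 102 CPM in GOLGA8N 1, 97.9 CPM in GOLGA8N 2 and 87.9 CPM in 23-GOLGA8N, against 66.6 CPM in Neg, 65.7 CPM in RFP and 92.8 CPM in GFP. GFP reached into the GOLGA8N range, and the log2 fold change was 0.54 ± 0.23 (adjusted p = 0.848). PSMD3 had 575, 450.0 and 439.6 CPM in those GOLGA8N libraries, against 455, 402.5 and 413 CPM in Neg, RFP and GFP, and a log2 fold change of 0.36 ± 0.16 (adjusted p = 0.849). Without GOLGA8N 1 it had 0.21. PSMB7 followed, at 0.28 ± 0.17, and had 0.14 without GFP.

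The immunoproteasome gene PSMB10 had 39.8 ± 7.46 CPM (SD, n = 3) in GOLGA8N libraries and 54.2 ± 16.6 CPM in controls (n = 3), and its log2 fold change of -0.25 had a 95% interval of -0.92 to 0.42. The catalytic genes PSMB5 and PSMB6 had log2 fold changes of 0.27 and 0.07, and PSMA7 had -0.0037. The activators PSME1 and PSME3 had 0.28 and 0.48, PSME2 and PSME4 had -0.0047 and -0.05, and the inhibitor PSMF1 had 0.08. Their intervals all included 0.

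LAPTM4B against control used the same controls, so the values of both comparisons are not independent. No member was called by edgeR, DESeq2 or limma-voom, and 0% of all genes was called. At an unadjusted p under 0.05, 2 members were higher and 0 lower (3.94% of all genes). In this comparison 31 members were higher and 13 lower (51.9% of all genes were higher), at a median log2 fold change of 0.14, against 0.02 over all genes. The direction rested on LAPTM4B 2: without it 22 of 44 members were higher and the median was -0.0043. With library totals alone the median was 0.0013, while that of all genes was -0.12.

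The alpha gene PSMA4 was the member with the lowest p and the only 1 whose groups did not overlap (10.1% of all genes). It had 216 CPM in LAPTM4B 1, 291 CPM in LAPTM4B 2 and 207 CPM in 22-LAPTM4B, against 200.4 CPM in Neg, 206 CPM in RFP and 182 CPM in GFP. The lowest LAPTM4B library was thus barely above the highest control. The log2 fold change was 0.41 ± 0.19 (SE), adjusted p = 0.9999. The catalytic PSMB7 and PSMB5 had log2 fold changes of 0.38 ± 0.17 and 0.36 ± 0.19, and PSMD9 had 0.36 ± 0.23. Without GFP, PSMB7 had 0.24. Among the activators, PSME3 had 0.44, PSME1 0.28, PSME2 0.16 and PSME4 -0.19, and PSMF1 had 0.22. PSMB10 averaged 45.7 ± 14.1 CPM (SD, n = 3) in LAPTM4B libraries, against 54.2 ± 16.6 CPM in controls (n = 3).

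GOLGA8N against LAPTM4B set 2 plasmid labels side by side. No member was called by edgeR, DESeq2 or limma-voom, against 0.00839% of all genes by edgeR, and 1 member, PSMC4, had an unadjusted p under 0.05 (2.04% of all genes). Fold changes were higher for 15 members and lower for 29 (48.4% of all genes were higher), with a median of -0.09. Without LAPTM4B 2 the median was 0.08 and 27 members were higher. PSMC4 had 135, 127 and 103 CPM in LAPTM4B 1, LAPTM4B 2 and 22-LAPTM4B, all above the GOLGA8N values given above, and a log2 fold change of -0.44 ± 0.21 (SE, adjusted p = 0.9999). Groups did not overlap for 4 members (8.35% of all genes), which were PSMC4, PSMB1, PSMD10 and PSMD7. PSMB1 averaged 503 ± 27.5 CPM (SD, n = 3) in GOLGA8N libraries and 435 ± 29.6 CPM in LAPTM4B libraries (n = 3). PSMD5 and PSMD12, the next by p, had log2 fold changes of -0.42 ± 0.27 and -0.65 ± 0.44. That of PSMD12 was -0.31 without LAPTM4B 2, -0.37 without 23-GOLGA8N and -0.98 without GOLGA8N 1.

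**Figure D3:**
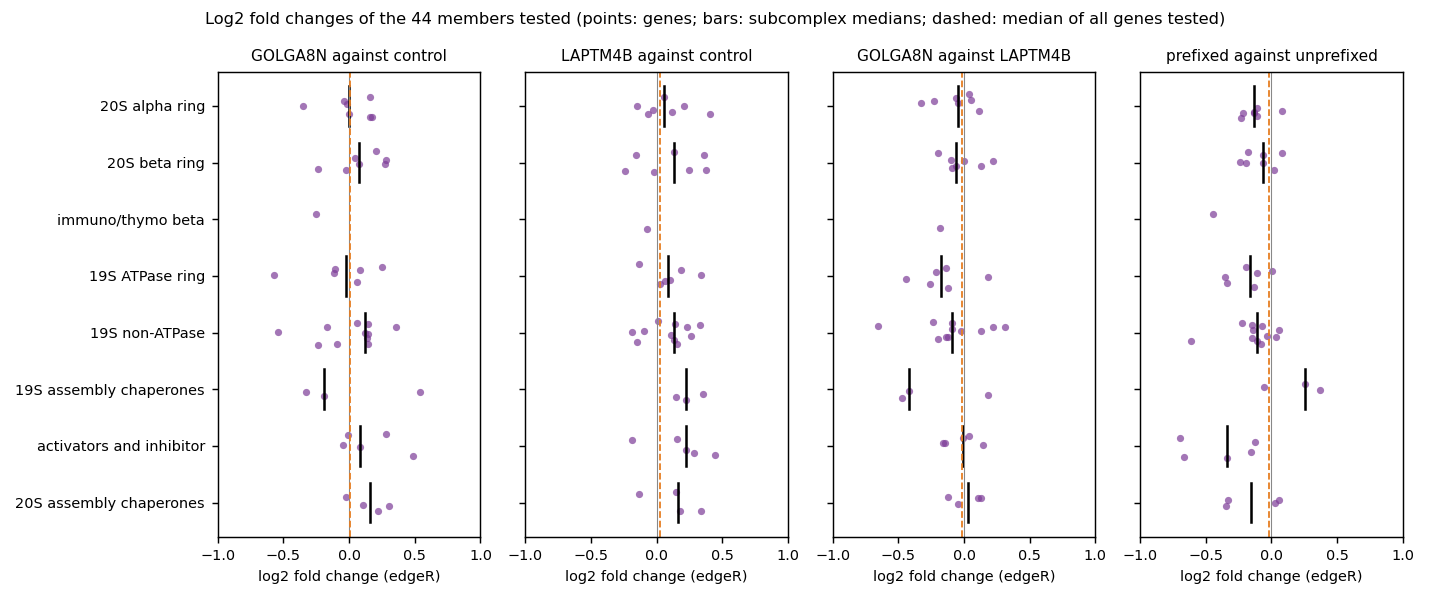
Log2 fold changes (x axes) of the 44 tested members by subcomplex (y axis) in 4 comparisons, each with the first-named group on top of the ratio. Points are genes, bars are subcomplex medians and dashed lines the median of all genes; the activator and inhibitor median is -0.34 between prefixed and unprefixed labels.

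Between prefixed and unprefixed labels 34 of 44 members were lower, the activator and inhibitor genes among them, though none passed the test. The 4 prefixed libraries named 4 different genes, of which CTPS2 and ARSF had no unprefixed library, and what the prefix marks is not given. No member passed the adjusted threshold in edgeR, DESeq2 or limma-voom, against 0.284% of 12319 genes by edgeR. At an unadjusted p under 0.05, 1 member was higher and 5 were lower (9.36% of all genes). Fold changes were higher for 10 members and lower for 34 (47.8% of all genes were higher), with a median of -0.13, against -0.02 over all genes. No member had groups that did not overlap (0.357% of all genes). The median stayed below 0 in all alternatives, between -0.18 and -0.10. By subcomplex, all 5 activator and inhibitor genes were lower (median -0.34), as were 6 of 7 alpha genes, 5 of 7 beta genes, 5 of 6 ATPases and 9 of 11 non-ATPase subunits. Of the 3 19S assembly chaperones, 2 had higher fold changes (PSMD5 at 0.37 and PSMD10 at 0.26) and PSMD9 had -0.06, and the 4 20S assembly chaperones split into 2 higher and 2 lower.

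PSME3 had the lowest p. It had 55.2 CPM in 23-GOLGA8N, 46.3 CPM in 22-LAPTM4B, 45.9 CPM in 21-CTPS2 and 88.4 CPM in 20-ARSF. The 13 unprefixed libraries ran from 52.7 CPM in GFP, with a median of 99.5 CPM, to 125 CPM in COL6A6. Libraries 22-LAPTM4B and 21-CTPS2 lay below every unprefixed library, 23-GOLGA8N lay above GFP alone, and 20-ARSF lay among the unprefixed values. The log2 fold change was -0.67 ± 0.21 (SE) and the adjusted p 0.245. Within labels, 23-GOLGA8N had 55.2 CPM, against 109 and 99.6 CPM in GOLGA8N 1 and 2, and 22-LAPTM4B had 46.3 CPM, against 90.3 and 125 CPM in LAPTM4B 1 and 2. In a fit of those 6 libraries with the gene as a term, the log2 fold change was -1.04 and the adjusted p 0.0456. PSME3 was chosen by its p over all libraries, which include those 6, so this fit is not separate support. It was called in 2 of 26 alternatives. PSME3 overlaps BECN1 on the opposite strand.

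PSME1, the other of the 2 lowest, had 10.8 CPM in 23-GOLGA8N, 17.1 in 22-LAPTM4B, 12.0 in 21-CTPS2 and 13.8 in 20-ARSF, against 14.97 to 28.3 CPM with a median of 21.9 CPM in unprefixed libraries. Only 22-LAPTM4B reached into that range. Its log2 fold change was -0.70 ± 0.27 (SE) and its adjusted p 0.377. PSMD12 averaged 20.9 ± 6.00 CPM (SD) in prefixed and 32.2 ± 11.2 CPM in unprefixed libraries, with a log2 fold change of -0.61 ± 0.27 (adjusted p = 0.451). PSMC4 averaged 96.9 ± 12.9 and 126 ± 27.6 CPM in prefixed and unprefixed libraries, and its log2 fold change was -0.34 ± 0.16 (adjusted p = 0.492). PSMB10 was lower at -0.44 ± 0.21, whereas the chaperone PSMD5 was higher at 0.37 ± 0.17.

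Other values moved with the prefix. Ribosomal protein genes took 24.6% to 25.3% of reads in prefixed libraries and 21.7% to 24.5% in unprefixed ones. The sum of 6 fibroblast genes, of which COL3A1, DCN, LUM and PDGFRB were at or near 0, was 20.7 to 38.1 CPM in prefixed and 40.0 to 64.3 CPM in unprefixed libraries. The lymphoid sum was 41.4 to 93.1 CPM in prefixed and 33.4 to 119 CPM in unprefixed libraries. The part of these in the result was not tested.

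**Figure D4:**
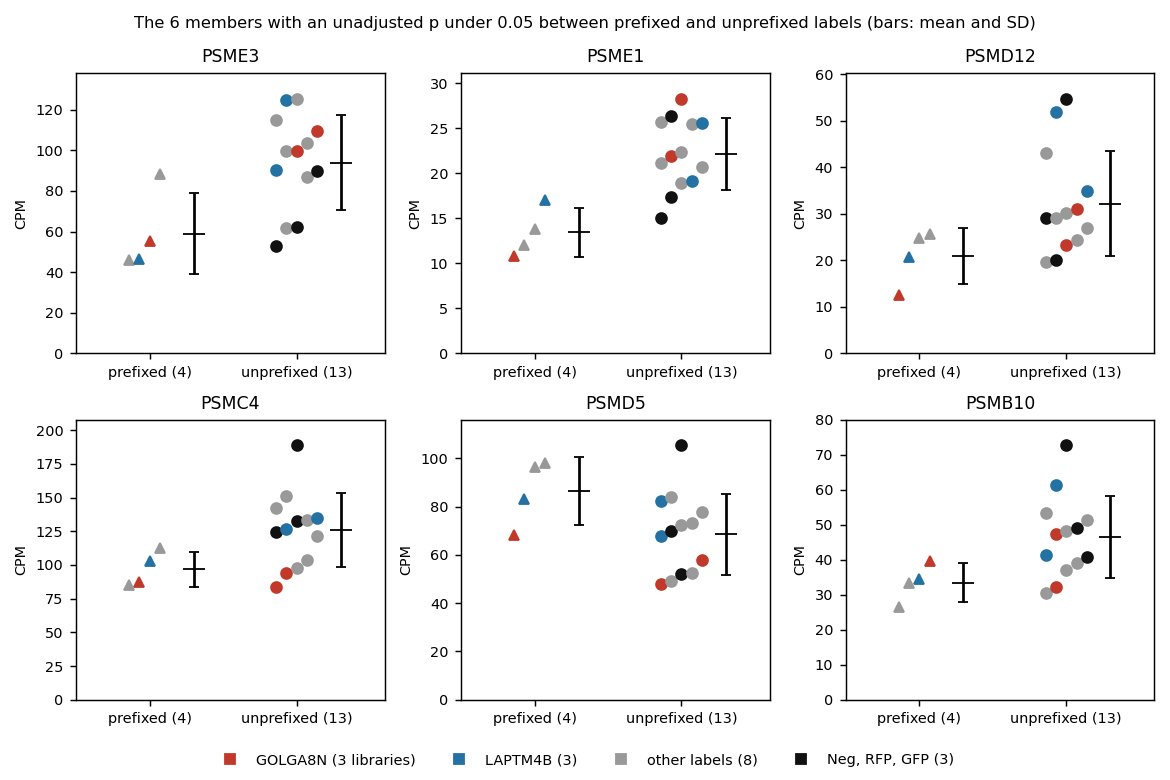
CPM (y axes, starting at 0) of the 6 members with an unadjusted p under 0.05 in the 4 prefixed and 13 unprefixed libraries. Points are libraries, bars show mean and SD; PSME3 averaged 58.9 CPM in prefixed and 93.9 CPM in unprefixed libraries, with 20-ARSF among the unprefixed values.

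Genes outside the name rule that work with the proteasome were read from 5 lists drawn up with earlier results known, and none was called in any comparison. Between prefixed and unprefixed labels, 6 of 10 proteasome partners, 7 of 9 NFE2L1 pathway genes, 6 of 10 ubiquitin genes and shuttles and 8 of 10 genes of the VCP complex, a segregase that extracts ubiquitinated proteins, were higher, as was 1 of 4 tested antigen presentation genes. Against control, higher values in GOLGA8N libraries were found for 7 of 10, 6 of 9, 8 of 10, 9 of 10 and 3 of 5 genes of these lists in that order, and in LAPTM4B libraries for 7, 5, 8, 8 and 3. Between GOLGA8N and LAPTM4B they were 6, 4, 5, 4 and 3. Between prefixed and unprefixed labels, MAFG, a dimer partner of NFE2L1, had a log2 fold change of 0.57 ± 0.18 (SE), the 20S maturation factor POMP 0.31 ± 0.13, and the VCP cofactors FAF1 and PLAA 0.43 ± 0.16 and 0.68 ± 0.26. Of 10 antigen presentation genes, 4 were tested, and TAP2, a subunit of the peptide transporter, averaged 19.01 CPM in prefixed and 39.8 CPM in unprefixed libraries, with -1.02 ± 0.25 (adjusted p = 0.068). B2M, the class I light chain, had -0.33 ± 0.10. Against control, POMP had a log2 fold change of 0.56 ± 0.20 in GOLGA8N libraries and 0.46 ± 0.20 in LAPTM4B libraries, with adjusted p values of 0.770 and 0.9999. SEM1, a small 19S subunit, had 0.33 ± 0.15 and 0.35 ± 0.15 in those comparisons.

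Single-library labels were described without a test. The member farthest from the median of the other 16 libraries was PSME3 in 21-CTPS2, with a log2 ratio of -0.96, PSMC5 in E7 at -1.05, PSMG2 in UBE2V1 at -1.33, PSMC6 in TRPC5OS at -0.80 and PSMD10 in COL6A6 at -1.09. These 5 lay outside the range of the other libraries. The farthest member was within that range in TTR (PSMD6, -0.61), 20-ARSF (PSME1, -0.56) and ADORA2A (PSMD10, -0.59).

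Some levels depend on how reads were assigned. For 6 members, transcripts without a gene in the annotation had the same length as a transcript of the member and read counts equal within 0.01 in all libraries. For PSMB3 they held 1905 reads, against 1907 for the annotated gene, and the median with both was 69.2 CPM in place of 34.7 CPM. For PSME1 the median was 40.2 CPM with copies and 20.7 CPM without, and for PSME2 89.1 CPM with and 52.0 CPM without. For PSMC4 it was 128 CPM with copies and 121 CPM without. PSMB8 reached at most 1.90 CPM and PSMB9 at most 2.85 CPM with these copies. Transcripts without a gene that differ from a member's transcript in length or reads were not searched for. The levels with copies therefore cover exact matches only.

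**Figure D5:**
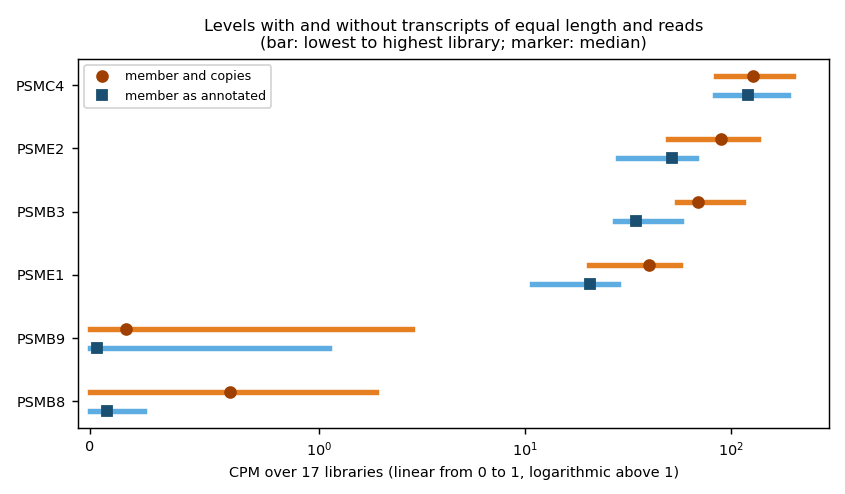
CPM over 17 libraries (linear from 0 to 1, logarithmic above 1) for 6 members, with transcripts of equal length and reads added (upper bars, circles) and as annotated (lower bars, squares). Bars run from the lowest to the highest library and markers are medians; the PSMB3 median is 69.2 CPM with them and 34.7 CPM as annotated.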

How the data were processed

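RNA of 17 K562 libraries was read as 3′ tags from oligo-dT priming with 12 bp molecular identifiers, per the labels' protocols. Each deposited file gives, per the file headers, the estimated counts and the TPM of a transcript quantifier. The submitters' processing notes name STAR 0.7.2, Salmon 0.7.2, featureCounts, UMI-tools, GRCh38 and hg38, without roles. No source used here states whether identifiers were collapsed, so floors of 3 reads cover counting error only.

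Transcript values were added up by gene using GENCODE 29 (205336 of 228297 transcripts matched; the others held 3.32% to 3.6% of reads and were left out) and rounded for tests. Genes were tested with edgeR 4.0.16 (TMM, filterByExpr, robust quasi-likelihood) in R 4.3.3, with Benjamini-Hochberg adjustment over all genes at 0.05. The 3 plasmid comparisons came from 1 fit of 9 libraries and the prefix comparison from all 17. A standard error is the log2 fold change over the root of F. DESeq2 1.42.0, limma-voom (limma 3.58.1), other scalings, filters, counting and library sets were alternatives, and the fit was tested on simulated data. No library pair agreed within counting noise (lowest chi-square per degree of freedom 7.46 of 136 pairs). Members, lists and comparisons were chosen with earlier results of these data known.

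Named members were the 4 with the lowest p per comparison, the immunoproteasome, thymus and testis genes with their counterparts, the activators and PSMF1, and per single-library label the member with the largest log2 ratio. Of each list the 2 lowest p per comparison were named, and others are said to be chosen for their values. One gene that this rule names is not reported here.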

Additional observations from a re-analysis of the deposited data

Results flagged for a closer look

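Transcripts that the annotation assigns to no gene carried reads outside the values above, with the length and, within 0.01, the reads of a member's transcript in every library. They held 1904.73 reads beside PSMB3 (1906.84 of its own), 997.423 beside PSME1 (1004.5), 2003.88 beside PSME2 (2556.29) and 439.433 beside PSMC4 (5921.73). The reads beside PSMB8 were 30.625, against 4.375 of its own, and those beside PSMB9 27.5617, against 10.3652. What these transcripts are is not annotated. Among 31 values screened in the 4 prefixed libraries, where chance gives about 1 flag in 20, no library stood apart.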

How the results depend on the processing

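In the prefix comparison, 1 member was called with no filter on low counts (PSME3, log2 fold change -0.66, adjusted p = 0.0306) and 1 in the 6 GOLGA8N and LAPTM4B libraries with the gene as a term (PSME3, -1.04, adjusted p = 0.0456), whereas 0 were called in the other alternatives of all 4 comparisons. The range for PSME3 was -1.04 to -0.55, with adjusted p from 0.0306 to 0.588. With 14 other libraries as the reference, PSMB7 in GOLGA8N turned to -0.0213 and PSMD9 in LAPTM4B to -0.00252, neither called, and the cause was not tested. Counts of all genes called in the prefix comparison were 35, or 124 with DESeq2, 557 with no filter, 73 in 6 libraries, 20 without controls, 102 without E7, 23 without LAPTM4B 1, 22 without ADORA2A, 11 without 21-CTPS2, 7 without 23-GOLGA8N and 2 without 22-LAPTM4B. For GOLGA8N against control they were 2, or 14 with DESeq2, 4 with limma-voom, 42 with no filter, 1 with totals alone, 7 with unprefixed labels, 19 with all 17 libraries, 6 with a prefix term, 4 against 14 other libraries and 1 to 5 without 1 library. For LAPTM4B against control they were 0, or 1, 2 and 24 with DESeq2, limma-voom and no filter, 2 with unprefixed labels, 4 with all 17 and 0 to 1 without 1 library. For GOLGA8N against LAPTM4B they were 1, or 2, 0 and 9 with the same 3 settings, 2 with unprefixed labels, 4 with all 17 and 1 to 3 without 1 library. With the replicate block on libraries titled 1 and 2, GOLGA8N against LAPTM4B gave 0 members and 2 genes called, as without it, and a member median of -0.10. The libraries share only a number (correlation of deviations 0.12 over 2 pairs). Library totals alone and adding the transcripts without a gene were alternatives chosen after seeing the data. GFP, the shallowest library, limits low members.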
